A study of Homo sapiens with 8 samples.

Results

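The genes described here are 41 interferon-stimulated genes and nucleic acid sensors, taken by name from the 58735 genes of a table of RNA-seq read counts. They comprise the receptor and kinases of the type I interferon pathway, its transcription factors, the sensors of foreign RNA and DNA, and the antiviral genes that interferon induces. The question was which of them were expressed and which stayed at the floor of counting in cells that had been transduced with lentivirus, and whether their levels differed with KRT19. All 41 names were found in the table, where the sensor RIG-I is listed as DDX58 and the adaptor STING as TMEM173.

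Cells recognise foreign nucleic acid with a small number of receptors. RIG-I and MDA5 bind double-stranded RNA in the cytosol and signal through MAVS, whereas cGAS binds DNA and signals through STING, and both routes lead to IRF3 and IRF7 and the production of interferon. Secreted interferon then binds its receptor, JAK1 and TYK2 phosphorylate STAT proteins, and a complex that contains STAT2 and IRF9 switches on genes whose promoters hold an interferon-stimulated response element. Many of these genes keep a basal level without interferon, and others are barely transcribed until it arrives.

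All 8 libraries carry the cell line label A549, the name of a widely used line from a human lung adenocarcinoma. In 4 libraries the cells carried an empty lentiviral vector (EV group), and in the other 4 they carried a lentivirus encoding Flag-tagged KRT19, a keratin of epithelial cells (KRT19 group). Both groups were selected with puromycin for 4 weeks to give stable lines, so transduction and selection are shared by all libraries, and untransduced cells were not analysed here. No source used here says that the 4 libraries of a group were separate cultures or transductions, so p-values measure the spread between these libraries, which may be technical.

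The libraries held 14073065 to 17054364 counts, for which 3 counts, taken as the floor, correspond to 0.176 to 0.213 CPM (counts scaled to a common library size). KRT19 itself had 1 to 5 counts in the EV libraries and 4353 to 5147 in the KRT19 libraries, as their labels state. Of 12 epithelial and A549-associated markers 6 were expressed, 2 were low and 4 were at the floor. KRT8, KRT18 and NQO1 had 2988 to 7518 counts, SLC7A11 had 204 to 321, KRT7 had 34 to 71 and AKR1C2 had 14 to 47. The epithelial genes EPCAM and CDH1 and the A549-associated genes AKR1C3 and ALDH1A1 had at most 3 counts in any library, and AKR1B10 and ALDH3A1 were low. CDKN2A, CDKN2B and MTAP, which lie in a region reported as deleted in A549, had 1328 to 1824, 466 to 659 and 653 to 870 counts. Their expression and the floor levels of EPCAM, CDH1, AKR1C3 and ALDH1A1 are unusual for A549. The methods of the study state that its lines were checked by STR profiling. The difference between these markers and the label was not resolved, so A549 is used here only as the label of the cells. None of 6 lung lineage genes and none of 6 leukocyte markers was expressed, and of 6 fibroblast and endothelial markers the 3 expressed ones had 8 to 54 counts. The extraction text of the labels names retina. Of the retina markers, NRL was expressed, with 9 to 24 counts, and RCVRN and SAG were at 0 counts throughout.

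A gene was called expressed when it passed the expression filter of edgeR, at the floor when no library had more than 3 counts, and low when it met neither condition. By this rule 31 of the 41 members were expressed, 4 were low (IFITM1, IRF9, DHX58 and BST2) and 6 were at the floor (OAS1, OAS2, MX1, MX2, RSAD2 and IFI44L). Levels were compared between genes as TPM, in which counts are divided by gene length before scaling. The expressed members ran from 0.863 TPM for IFI27 to 247 TPM for IFITM3, against a median of 16.1 TPM over all 14621 expressed genes. A limit of 1 TPM on the mean also gave 31 members, but it exchanged IFI27 for IFITM1.

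**Figure D1:**
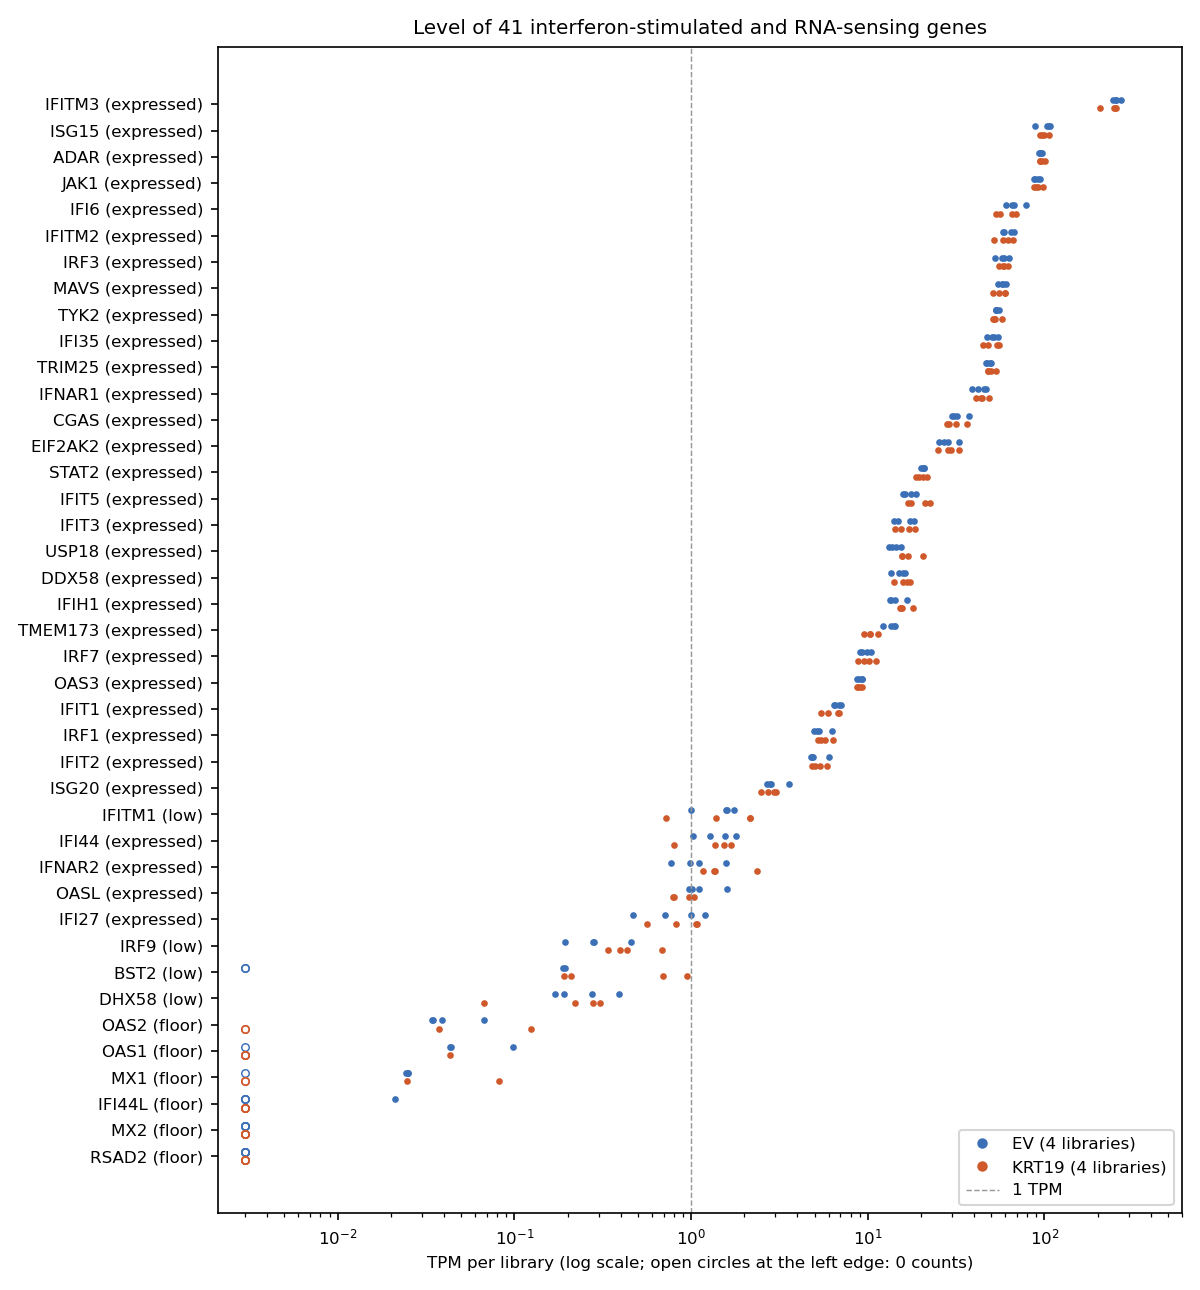
TPM of each of the 41 members in every library (log scale), ordered by the mean, with EV libraries in blue and KRT19 libraries in orange; open circles at the left edge mark libraries with 0 counts, and the dashed line marks 1 TPM. IFITM3 stands alone at the top with a mean of 247 TPM, and the 6 members at the floor lie at the bottom, with MX2 and RSAD2 at 0 counts in all 8 libraries.

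The separation cut through gene families. Of the OAS enzymes, which make the messenger that activates RNase L, OAS3 was expressed at 8.97 TPM, while OAS1 and OAS2 stayed at the floor. Their relative OASL, which lacks that activity, was expressed at 1.04 TPM. IFI44 was expressed at 1.38 TPM, and its neighbour IFI44L on chromosome 1 had a single count in 1 of 8 libraries. All 4 IFIT genes were expressed, whereas both MX genes were at the floor. The helicases RIG-I and MDA5 were expressed and their relative, DHX58, was low.

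The promoters of the members were compared for the core of the interferon-stimulated response element, GAAANNGAAA, searched on both strands with overlapping matches allowed. RefSeq promoter windows on GRCh38.p14, from 250 bases before to 50 bases after an annotated start, were matched for 29 members. The members not matched were IFNAR2, IRF3, IRF7, DHX58, CGAS, TMEM173, OAS2, OASL, IFIT2, IFITM2, MX2 and USP18. The core was found in 17 of these 29 members (58.6%) and in 1195 of 27305 genes with a window (4.38%). It was found in 12 of 22 expressed members, in 2 of 3 low members and in 3 of 4 members at the floor, so the core stood on both sides of the separation. A match describes letters in a window and does not show that a factor was bound.

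These 6 windows are printed because they span that separation, with the core and overlapping cores in capitals, in the direction of the gene. ISG15, IFI6 and IFIT1 were expressed, BST2 was low, and IFI44L and RSAD2 were at the floor. They lie at chr1:1013247-1013546 on the + strand (ISG15), chr1:27672143-27672442 on the - strand (IFI6), chr10:89392373-89392672 on the + strand (IFIT1), chr19:17405581-17405880 on the - strand (BST2), chr1:78620198-78620497 on the + strand (IFI44L) and chr2:6877527-6877826 on the + strand (RSAD2).
ISG15: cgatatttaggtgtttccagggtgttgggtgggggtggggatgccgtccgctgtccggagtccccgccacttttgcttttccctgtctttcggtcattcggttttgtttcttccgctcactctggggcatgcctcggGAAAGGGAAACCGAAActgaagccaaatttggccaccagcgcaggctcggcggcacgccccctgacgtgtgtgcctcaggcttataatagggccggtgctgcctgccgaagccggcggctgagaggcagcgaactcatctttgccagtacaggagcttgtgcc
IFI6: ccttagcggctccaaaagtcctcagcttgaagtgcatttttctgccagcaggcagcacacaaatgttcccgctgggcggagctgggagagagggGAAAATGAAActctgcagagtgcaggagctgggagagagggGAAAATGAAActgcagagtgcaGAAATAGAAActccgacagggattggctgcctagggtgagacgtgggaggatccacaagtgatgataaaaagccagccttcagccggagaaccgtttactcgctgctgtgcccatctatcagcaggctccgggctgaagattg
IFIT1: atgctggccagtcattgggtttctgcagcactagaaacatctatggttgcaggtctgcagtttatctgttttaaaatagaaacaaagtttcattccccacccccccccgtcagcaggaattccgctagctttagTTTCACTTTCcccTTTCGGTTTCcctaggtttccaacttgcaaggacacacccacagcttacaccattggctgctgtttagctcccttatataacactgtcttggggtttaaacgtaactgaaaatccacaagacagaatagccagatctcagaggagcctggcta
BST2: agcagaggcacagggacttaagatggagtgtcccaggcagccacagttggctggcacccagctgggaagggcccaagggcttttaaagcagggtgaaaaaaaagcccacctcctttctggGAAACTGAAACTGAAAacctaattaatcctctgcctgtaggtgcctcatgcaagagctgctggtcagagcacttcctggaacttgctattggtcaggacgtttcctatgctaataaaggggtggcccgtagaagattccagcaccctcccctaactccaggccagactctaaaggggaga
IFI44L: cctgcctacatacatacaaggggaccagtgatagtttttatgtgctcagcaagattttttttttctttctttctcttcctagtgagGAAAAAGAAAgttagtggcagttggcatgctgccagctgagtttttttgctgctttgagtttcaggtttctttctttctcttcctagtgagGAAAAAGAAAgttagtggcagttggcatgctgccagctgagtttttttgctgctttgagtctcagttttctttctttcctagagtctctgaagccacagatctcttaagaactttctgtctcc
RSAD2: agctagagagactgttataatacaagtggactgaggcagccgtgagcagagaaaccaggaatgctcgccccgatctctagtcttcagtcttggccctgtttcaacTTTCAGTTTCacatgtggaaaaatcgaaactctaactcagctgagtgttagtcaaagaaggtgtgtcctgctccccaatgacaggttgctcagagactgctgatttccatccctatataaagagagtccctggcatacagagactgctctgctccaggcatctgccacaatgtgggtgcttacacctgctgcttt

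In ISG15 and in BST2 the capitals are 2 cores that overlap in 1 run, whose first base lies at -113 and at -130 from the annotated start. IFI6 held 3 separate cores, and IFIT1 held 2 on the opposite strand. IFI44L, with 1 count in all, held 2 cores at -164 and -73. RSAD2, with 0 counts, held 1 core at -145 from the second of its 2 annotated starts.

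**Figure D2:**
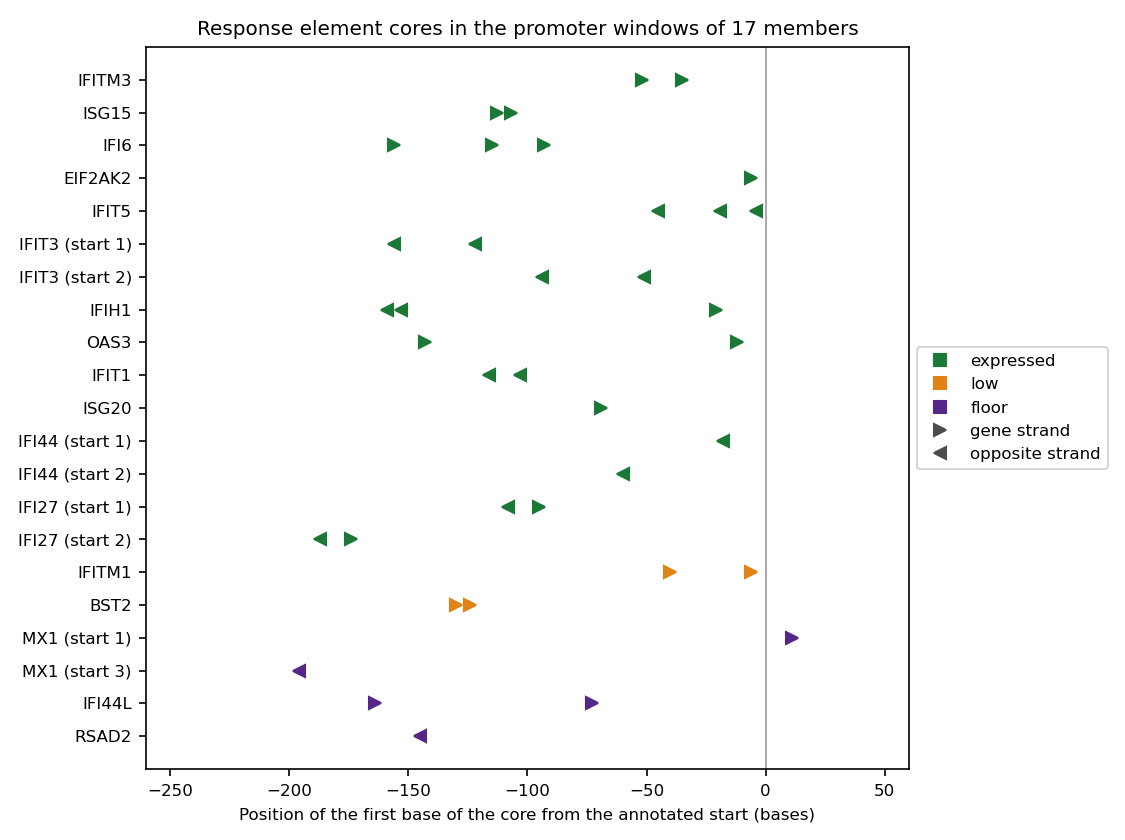
Position of each response element core in the promoter windows of the 17 members that hold one, in bases from the annotated start (grey line); triangles point right for the strand of the gene and left for the opposite strand, and colours give the expression class. Cores of members at the floor (purple) lie between -196 and 11, and those of expressed members (green) between -187 and -4.

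The receptor chains and their kinases were expressed at unequal levels. JAK1, the kinase on IFNAR2, was at 163, 160.5, 155 and 156 CPM in EV replicates 1 to 4 and at 159, 170.0, 152 and 164 CPM in KRT19 replicates 1 to 4. TYK2, the kinase on IFNAR1, was at 98.4, 100.4, 106 and 101 CPM in EV and at 109.8, 97.9, 95.6 and 99.7 CPM in KRT19. IFNAR1, a chain of the receptor, was at 79.8, 79.2, 69.1 and 74.4 CPM in EV and at 72.9, 76.6, 83.8 and 77.4 CPM in KRT19. The groups overlapped for all 3 genes, and their TPM means were 91.0, 53.6 and 43.7. IFNAR2, the other chain, was far lower at 1.34 TPM, with 17 to 34 counts in EV and 24 to 51 counts in KRT19. Exons of other genes cover 83.2% of the IFNAR2 exons (44.2% on the same strand, by the readthrough gene AP000295.1 with 0 counts), and how reads shared by genes were counted was not given in the sources used here, so its level is uncertain.

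Among the transcription factors, IRF3 had the highest mean. IRF3, which is activated downstream of MAVS and STING, was at 54.2, 62.4, 67.2 and 61.3 CPM in EV and at 66.3, 60.3, 57.7 and 63.4 CPM in KRT19, with a mean of 58.3 TPM. Exons of BCL2L12 on the opposite strand (614 to 818 counts) cover 19.4% of its exonic bases, so without a known strand setting this level is uncertain. STAT2, a subunit of the complex that interferon activates, was at 34.7, 35.4, 34.4 and 35.3 CPM in EV and at 35.4, 31.4, 32.6 and 37.4 CPM in KRT19. IRF7, which amplifies interferon production, was at 7.06, 6.81, 7.73 and 6.65 CPM in EV and at 7.49, 7.96, 6.32 and 7.08 CPM in KRT19. Values of the groups overlapped for each of these genes, and IRF1, a factor induced by interferon gamma, averaged 5.55 TPM, with 22.0% of its exonic bases under exons of opposite-strand genes. IRF9, which gives that complex its DNA binding, was low, with 3, 8, 5 and 5 counts in EV and 7, 10, 6 and 7 counts in KRT19. The low IRF9 count is uncertain, because 48.4% of its exonic bases also belong to the readthrough gene AL136295.5, which had 2 to 9 counts.

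Of the 7 members that sense nucleic acids or relay the signal, DHX58 alone was not expressed. MAVS, the mitochondrial adaptor of the RNA helicases, was at 194.5, 179, 190.5 and 191 CPM in EV and at 199, 194, 179 and 170.0 CPM in KRT19. TRIM25, a ubiquitin ligase that acts on RIG-I, was at 129, 124, 132 and 126 CPM in EV and at 128, 139, 125 and 133.5 CPM in KRT19. CGAS, the DNA sensor, was at 42.4, 34.4, 37.5 and 35.8 CPM in EV and at 33.6, 35.8, 41.9 and 33.0 CPM in KRT19. The 3 genes averaged 57.1, 49.0 and 31.9 TPM and their groups overlapped. DDX58 and IFIH1, which encode RIG-I and MDA5, stood at nearly the same level, 15.6 and 15.3 TPM, with group means of 15.1 ± 1.18 and 14.4 ± 1.54 TPM in EV and 16.0 ± 1.44 and 16.1 ± 1.31 TPM in KRT19 (SD, n = 4). DHX58, which encodes LGP2, a helicase without the signalling domains of RIG-I, had 3, 3, 7 and 5 counts in EV and 5, 1, 4 and 5 counts in KRT19.

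Of the effectors that bind RNA, ADAR and EIF2AK2 were the highest. ADAR, which edits adenosine to inosine in double-stranded RNA, was at 248, 251, 262 and 263 CPM in EV and at 258, 268, 256.5 and 258 CPM in KRT19, a mean of 95.6 TPM. EIF2AK2, the kinase PKR that stops translation on sensing double-stranded RNA, was at 95.7, 80.3, 76.7 and 85.9 CPM in EV and at 75.7, 87.2, 96.6 and 86.8 CPM in KRT19, a mean of 28.6 TPM. OAS3 was at 20.8, 21.1, 20.9 and 19.9 CPM in EV and at 21.4, 19.8, 19.8 and 21.04 CPM in KRT19. All 3 genes overlapped between the groups. ISG20, an RNA exonuclease, averaged 2.88 TPM, and EV replicate 3 lay above the other EV libraries. OASL, a relative of the OAS enzymes without their activity, had 23, 18, 16 and 17 counts in EV and 16, 14, 13 and 12 counts in KRT19. OAS1 had 0 to 2 counts and OAS2 0 to 3 counts, so no fold is given for either.

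The IFIT proteins bind foreign RNA ends and block their translation, and the 4 genes lie together on chromosome 10. IFIT5 was the highest of them at 18.3 TPM, followed by IFIT3 at 16.2 TPM, IFIT1 at 6.50 TPM and IFIT2 at 5.20 TPM. IFIT5 was at 20.6, 19.6, 18.0 and 18.3 CPM in EV and at 19.9, 23.1, 24.8 and 19.2 CPM in KRT19. KRT19 replicates 2 and 3 lay above all EV libraries and replicates 1 and 4 within their range. IFIT3 was at 13.1, 12.7, 10.5 and 10.9 CPM in EV and at 11.5, 12.4, 13.4 and 10.6 CPM in KRT19. IFIT1 was at 8.12, 8.80, 9.25 and 8.47 CPM in EV and at 7.73, 6.90, 8.67 and 8.87 CPM in KRT19. The groups overlapped for both genes. Of the IFIT2 exons, 8.68% are shared with a gene on the same strand that had 0 to 2 counts, and 1.58% lie under LIPA on the opposite strand, which had 1359 to 1794 counts against 76 to 117 for IFIT2.

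IFITM3, which stops viruses from fusing in endosomes, was the highest of all members per length. It was at 89.5, 95.03, 103 and 95.5 CPM in EV and at 94.5, 92.0, 76.5 and 96.3 CPM in KRT19, and its mean of 247 TPM exceeded that of 95.9% of expressed genes. The groups overlapped, and KRT19 replicate 3 was the lowest library. IFITM2, its close relative, was at 24.4, 27.9, 29.5 and 25.4 CPM in EV and at 28.98, 24.5, 21.9 and 27.2 CPM in KRT19. IFITM1, the form at the cell surface, had 7, 8, 5 and 9 counts in EV and 7, 3, 11 and 10 counts in KRT19, a mean of 1.55 TPM. These 3 values are partly entangled, because the IFITM1 gene lies inside the annotated span of IFITM2, 32.5% of its exonic bases are also IFITM2 exons, and 8.05% of the 75-base words of IFITM3 occur in transcripts of other genes, mostly of IFITM2. BST2, the tetherin that holds budding virus on the membrane, had 0, 1, 0 and 1 counts in EV and 1, 3, 5 and 1 counts in KRT19, too few for a fold.

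The strongly inducible antiviral genes MX1, MX2 and RSAD2 were at the floor. MX1, a GTPase that traps viral nucleoprotein, had 0, 1, 1 and 1 counts in EV and 0, 0, 1 and 3 counts in KRT19. MX2, its relative at the nuclear envelope, and RSAD2, which encodes the radical enzyme viperin, had 0 counts in all 8 libraries. A count of 0 allows up to 3 counts, 0.176 to 0.213 CPM depending on the library, and covers counting error only.

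ISG15 is a ubiquitin-like protein that is conjugated to other proteins in the interferon response, and USP18 removes it and also damps signalling at the receptor. ISG15 was at 22.6, 27.7, 27.6 and 28.2 CPM in EV and at 28.2, 24.2, 25.9 and 25.7 CPM in KRT19. Its mean of 100.2 TPM was the second highest among the members, and EV replicate 1 was the lowest library, apart from the other EV libraries. USP18 was expressed at 15.7 TPM and is described with the group comparison.

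The remaining genes named for induction by interferon ran from the floor (IFI44L) to 64.4 TPM (IFI6). IFI6, a small membrane protein, was at 14.3, 15.7, 19.3 and 16.2 CPM in EV and at 16.0, 13.3, 16.5 and 13.0 CPM in KRT19, which was the highest of them. IFI35 was at 25.6, 29.9, 28.96 and 28.0 CPM in EV and at 30.0, 25.9, 24.4 and 30.7 CPM in KRT19, a mean of 50.8 TPM. The groups overlapped for both. IFI44 had 13, 12, 17 and 10 counts in EV and 16, 12, 13 and 7 counts in KRT19. IFI27, which interferon induces strongly, had 8, 19, 23 and 14 counts in EV and 16, 9, 21 and 19 counts in KRT19. Replicates of 1 group differed more than the groups did for these 2 genes, whose levels sat just above the filter.

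The comparison of KRT19 with EV asked whether overexpression of the keratin moved this set of genes. With the edgeR quasi-likelihood test, adjusted over all 14621 genes by the Benjamini-Hochberg method, 0 of the 31 expressed members passed 0.05 (0.00684% of all genes, which is KRT19 itself). Adjusted p-values of the members ran from 0.534 to 0.986. At an unadjusted p under 0.05 there were 2 of 31 members (6.45%), beside 5.41% of all genes tested. The groups did not overlap for the same 2 members, TMEM173 and USP18 (6.45%, beside 3.44% of all genes tested). Both shares rest on 2 genes. DESeq2 and limma-voom with sample quality weights also gave 0 adjusted calls of members, beside 5 and 8 of all 14621 genes. They gave 2 and 3 members at an unadjusted p under 0.05, beside 3.98% and 9.14% of all genes in those fits.

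**Figure D3:**
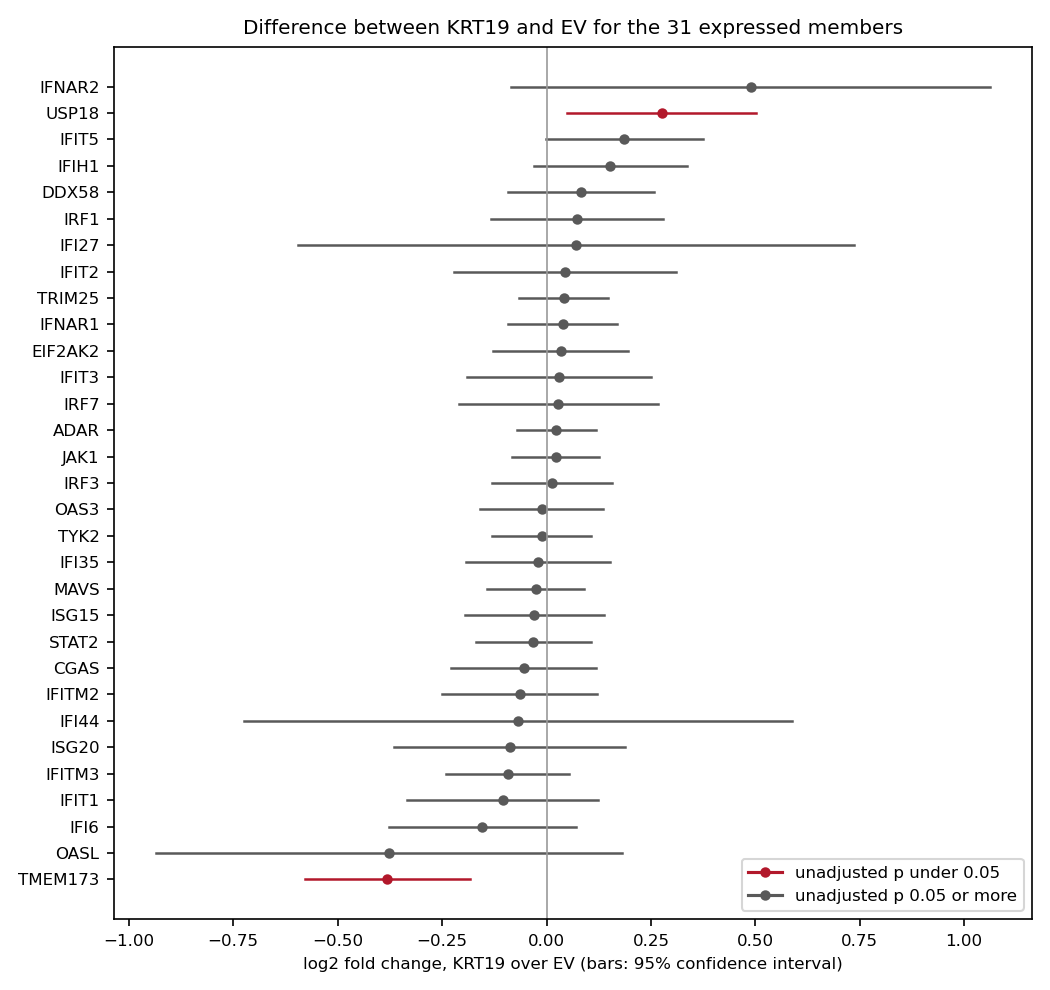
Log2 fold change of KRT19 over EV for the 31 expressed members, with 95% confidence intervals from the edgeR fit; red marks an unadjusted p under 0.05. TMEM173 at -0.38 and USP18 at 0.28 are the members in red, and the widest intervals belong to IFI27, IFI44, IFNAR2 and OASL, the members with the fewest counts.

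The differences were small in both directions. The log2 fold change was above 0 for 16 members and below 0 for 15, with a median of 0.014 beside 0.0051 over all genes tested. The median size without regard to sign was 0.054 for the members and 0.068 for all genes tested. In 27 of 31 members the estimated difference was within 1.2-fold, which counts estimates and not their intervals. The interval of IFI44, counted among them, ran from -0.72 to 0.59 in log2. Intervals were narrow for the abundant members. For ADAR the log2 fold change was 0.023 (0.009 to 0.037 when 1 library was left out) with a 95% confidence interval of -0.071 to 0.12, and for JAK1 it was 0.022 with an interval of -0.082 to 0.13. For members near the filter the interval was wide, as for IFI27 (-0.59 to 0.74), so differences of that size were not detectable at this depth.

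TMEM173, the gene of STING, lies at chr5:139475534-139482935 on GRCh38 and shares no exon or 75-base word with another annotated gene. It was at 14.9, 13.0, 15.4 and 14.6 CPM in EV replicates 1 to 4 and at 11.1, 10.9, 10.1 and 12.4 CPM in KRT19 replicates 1 to 4. Every KRT19 library lay below every EV library. The means were 14.5 ± 1.03 CPM in EV and 11.1 ± 0.932 CPM in KRT19 (SD, n = 4), a log2 fold change of -0.38 ± 0.093 (SE), with a 95% confidence interval of -0.58 to -0.18. Its unadjusted p in edgeR was 0.000768, the rank was 21 among the 14621 genes, and the adjusted p was 0.534, so the difference did not pass the correction. Over the alternatives its log2 fold change ran from -0.44 to -0.31 and its adjusted p from 0.0746 to 0.999.

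USP18 lies at chr22:18149899-18177397 and shares 18.3% of its 75-base words with other genes, mostly with its near-copy USP41, which had 0 to 4 counts. It was at 8.92, 8.07, 8.76 and 7.88 CPM in EV and at 9.36, 12.02, 9.96 and 9.46 CPM in KRT19. The KRT19 libraries lay above the EV libraries, and KRT19 replicate 2 lay above the other 3. The means were 8.41 ± 0.507 and 10.2 ± 1.24 CPM (SD, n = 4), a log2 fold change of 0.28 ± 0.11 (SE) with an unadjusted p in edgeR of 0.0195 and an adjusted p of 0.906. Over the alternatives its log2 fold change ran from 0.19 to 0.31 and its adjusted p from 0.446 to 0.9995. The unadjusted p was above 0.05 without KRT19 replicate 2 or without EV replicate 4.

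**Figure D4:**
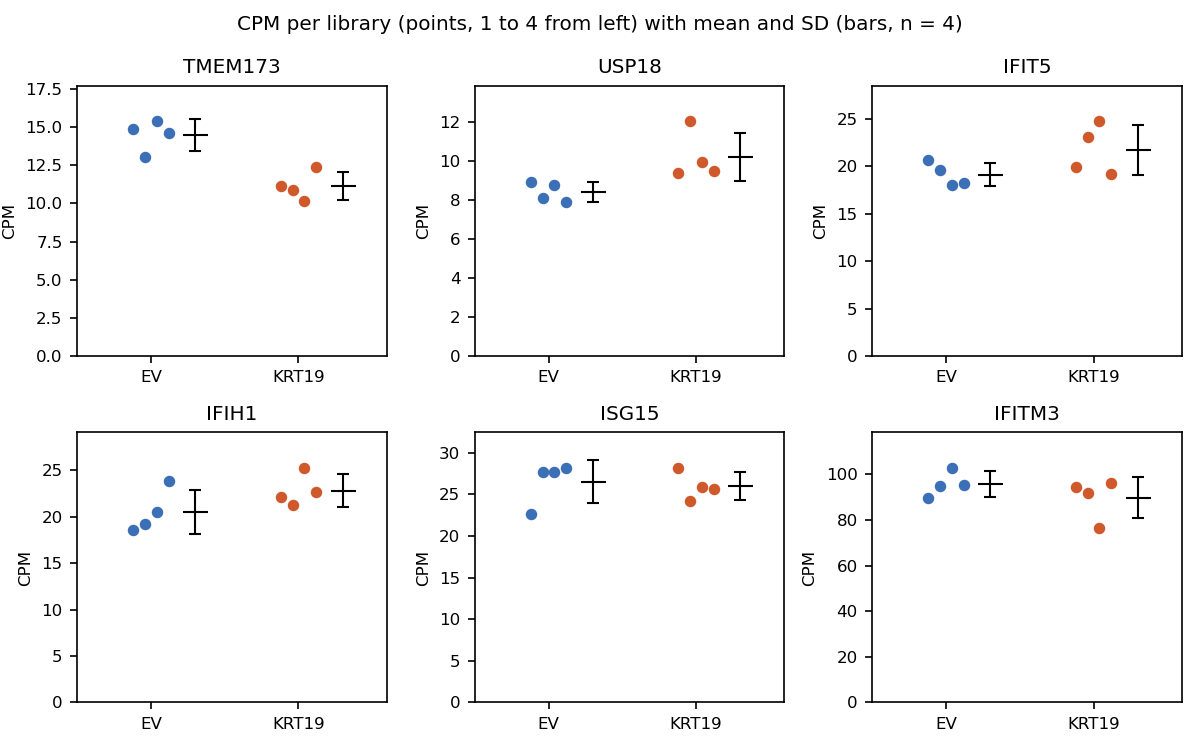
CPM of 6 members in each library (points, replicates 1 to 4 from left to right) with the mean and SD of each group (bars, n = 4); each axis starts at 0. KRT19 libraries are all below EV libraries for TMEM173 and all above them for USP18, and the groups overlap for IFIT5, IFIH1, ISG15 and IFITM3.

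IFNAR2 had a log2 fold change of 0.49 ± 0.27 (SE) on 17 to 51 counts per library, with an unadjusted p in edgeR of 0.0897 and an adjusted p of 0.906. KRT19 replicate 3 was the highest library for IFNAR2, at 2.99 CPM, and the groups overlapped. Leaving out KRT19 replicate 3 gave a log2 fold change of 0.22, leaving out EV replicate 3 gave 0.72, and leaving out any other library gave a value between these. Its unadjusted p was under 0.05 when EV replicate 3 or KRT19 replicate 1 was left out. OASL had a log2 fold change of -0.38 ± 0.26 and IFIT5 one of 0.19 ± 0.089, with unadjusted p-values in edgeR of 0.172 and 0.0506. Without EV replicate 1 the value of OASL was -0.22. That of IFIT5 was 0.12 without KRT19 replicate 3, and its unadjusted p was under 0.05 without EV replicate 1, KRT19 replicate 1 or KRT19 replicate 4. IFIH1 had a log2 fold change of 0.15 ± 0.087 and IFI6 one of -0.15 ± 0.11, neither past the unadjusted threshold in the edgeR fit on all libraries. IFIH1 was at 0.098 without KRT19 replicate 3 and at 0.23 without EV replicate 4, where its groups no longer overlapped and its unadjusted p was under 0.05. IFI6 was at -0.065 without EV replicate 3, and its unadjusted p was under 0.05 with limma-voom and sample quality weights together. The log2 fold changes of the other members ran from -0.11 for IFIT1 to 0.083 for DDX58.

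Around the members, 127 further genes of the pathway were examined, from lists chosen with earlier results of these data known. Of these genes, 74 were expressed, 6 were low and 47 were at the floor. All 20 interferon ligands were at the floor, 16 of them at 0 counts, and the highest, IFNE, had at most 3 counts. Of 5 further genes (4 receptor chains and the kinase JAK2) 4 were expressed, led by IFNGR2 and IFNGR1, the chains of the interferon gamma receptor, at 80.5 and 23.3 TPM. Of 30 other sensing genes 22 were expressed, led by IRAK1, a kinase of Toll-like receptor signalling, at 736 TPM and DHX9, an RNA helicase, at 239 TPM. Of 8 negative regulators 7 were expressed, led by PTPN1 at 106.5 TPM and SOCS3 at 43.2 TPM. Of 64 other interferon-induced genes 41 were expressed and 20 were at the floor, and LAP3 and SHISA5 led at 154 and 141 TPM. With edgeR 0 of the 74 expressed genes passed the adjusted threshold. At an unadjusted p under 0.05 there were 3 higher and 0 lower in KRT19, which is 3 of 74 genes beside 5.41% of all genes tested. AZI2, an adaptor of the kinase TBK1, had a log2 fold change of 0.30 ± 0.068 (SE) and an adjusted p in edgeR of 0.431. TANK, another such adaptor, had 0.20 ± 0.063, and PTPN2, a phosphatase of JAK kinases, had 0.14 ± 0.054. The groups did not overlap for these 3 genes and for DHX9, 4 of 74 genes beside 3.44% of all genes tested.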

How the data were processed

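RNA was extracted with TRIzol and sequenced in 8 libraries, 4 EV and 4 KRT19, grouped by the sample titles. Values deposited by the authors are whole-number counts of reads for each gene and library, not normalized. The submitters' processing notes name Bowtie 0.12.2, featureCounts 1.5.0-p3, DESeq2 and hg38, and the strand setting and the handling of reads shared by genes were not given in the sources used here. Reads of overlapping or near-identical genes are therefore uncertain. All 58735 genes had the start, end and exon length of GENCODE 29, and those lengths were used for TPM.

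Genes were kept by filterByExpr in edgeR 4.0.16 (R 4.3.3), which left 14621, scaled by TMM and compared with glmQLFit and glmQLFTest on the group alone. P-values were two-sided and adjusted by the Benjamini-Hochberg method over all genes tested, at 0.05. CPM used the TMM-scaled library sizes. DESeq2 1.42.0 and limma 3.58.1 (voom with sample quality weights) served as alternatives, with other scalings and filters, a replicate block and the omission of each library. The procedure was run on simulated counts, drawn independently for each library with the spread estimated from these data. Such a run cannot show whether the libraries of a group are independent. The members and gene lists were chosen with earlier results of these data known. Every member is named. Values per library are given in full for expressed members with an unadjusted p under 0.05, without overlap, or among the 3 highest by TPM of their role, and for some members with few counts they were added after the values were seen. Promoters came from RefSeq, and shared words of 75 bases from GENCODE 29 transcripts.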

Additional observations from a re-analysis of the deposited data

Results flagged for a closer look

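In 62 groups of 4 libraries (31 members in 2 groups), 1 library stood apart from the other 3 by Dixon's criterion in 4 groups, where chance alone gives about 1 in 20 groups. For ADAR, KRT19 replicate 2 was the highest library: its 8.07 log2 CPM compares with 8.004 to 8.012 in the other 3, a gap of 0.862 of the range. ISG20 was highest in EV replicate 3, at 2.92 against 2.49 to 2.56 log2 CPM, a gap of 0.835 of the range. IFIT2 was highest in EV replicate 4, at 2.81 against 2.48 to 2.50 log2 CPM, a gap of 0.938 of the range. ISG15 was lowest in EV replicate 1, at 4.51 against 4.79 to 4.82 log2 CPM, a gap of 0.909 of the range.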

How the results depend on the processing

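No member passed the adjusted threshold under any of the 15 alternatives, and few other genes did. Of all genes, 5 passed with DESeq2, 8 with limma-voom and sample quality weights, 71 with the looser filter and 1 to 5 in the other alternatives. TMEM173 had an unadjusted p under 0.05 in all 15 alternatives and USP18 in all but 2, those without EV replicate 4 and without KRT19 replicate 2. The number of members at an unadjusted p under 0.05 was 3 of 31 with limma-voom and sample quality weights (9.14% of all genes), where IFI6 was added, and 4 of 39 with the looser filter (5.15% of all genes), where IFIT5 and IFNAR2 were added. It was 1 to 4 when each library was left out, the 1 being without KRT19 replicate 2 (5.33% of all genes) and the 4 without KRT19 replicate 1 (8.29% of all genes). The number of members whose groups did not overlap was 2 to 4 when each library was left out, the 4 being without EV replicate 3, where IFNAR2 and OASL were added. In those comparisons of 3 libraries with 4, the groups did not overlap for 5.54% to 7.84% of all genes, beside 3.44% with all libraries. With the looser filter BST2 was a further member without overlap (2.47% of all genes in that fit), on 0 or 1 counts in EV and 1 to 5 counts in KRT19. Libraries of both groups had 1 count of BST2, so its separation came from library scaling alone. In the fits that left out 1 library, the median log2 fold change of the members lay between -0.021 and 0.011. With limma-voom and quality weights, which changes the test and the weight of each library together, the log2 fold change was 0.013 for OAS3, -0.023 for IFIT3, 0.0009 for IFITM2 and 0.033 for IFI35, each opposite in sign to that of edgeR.

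Signs close to 0 also turned when 1 library was left out, and the log2 fold changes then ran as follows. They were -0.0016 to 0.069 for IFNAR1, -0.0039 to 0.0502 for JAK1, -0.056 to 0.013 for TYK2, -0.077 to 0.0048 for STAT2, -0.039 to 0.061 for IRF3 and -0.021 to 0.088 for IRF7. They were -0.061 to 0.013 for MAVS, -0.14 to 0.008 for CGAS, -0.024 to 0.097 for EIF2AK2, -0.034 to 0.0061 for OAS3, -0.14 to 0.022 for ISG20 and -0.018 to 0.13 for IFIT2. They were -0.031 to 0.083 for IFIT3, -0.13 to 0.007 for IFITM2, -0.096 to 0.0018 for ISG15, -0.12 to 0.29 for IFI27, -0.072 to 0.039 for IFI35 and -0.21 to 0.10 for IFI44. Of the members whose sign held, the values ran from 0.22 to 0.72 for IFNAR2, from -0.45 to -0.22 for OASL, from 0.12 to 0.24 for IFIT5, from 0.098 to 0.23 for IFIH1 and from -0.21 to -0.065 for IFI6. They ran from 0.025 to 0.14 for IRF1, from 0.039 to 0.14 for DDX58, from -0.15 to -0.042 for IFIT1 and from -0.13 to -0.022 for IFITM3. For ADAR they ran from 0.009 to 0.037, for TRIM25 from 0.014 to 0.063, for USP18 from 0.19 to 0.31 and for TMEM173 from -0.44 to -0.34.

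With the replicate block, 0 members and 1 of all genes passed the adjusted threshold, and 2 members had an unadjusted p under 0.05. The number of all genes at an unadjusted p under 0.05 went from 791 to 451. Residuals of libraries with the same number correlated at -0.111, -0.0239, -0.159 and 0.0567, so the numbers did not pair the libraries. The block changed no call of a member.

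Members near the expression filter had wide intervals, as for IFI27 (-0.59 to 0.74). The floor of 3 counts, 0.176 to 0.213 CPM, limits what can be said of the 10 members that were not tested, and counting error is all that it covers. Counts of IFNAR2, IRF9, IFIT2, IFITM1, IFITM2, IFITM3 and USP18 depend on how shared reads were assigned, and those of IFNAR2, IRF1, IRF3, IFIT2 and IFITM3 also on the strand setting. The vector is present in both groups, so its part in these levels cannot be told apart from the basal level.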
